A study of Mus musculus with 116 samples.

Results

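At a Cas9 cut in the mouse Myc gene, 366732 sequencing reads carried extra bases between the end of the primed (bait) side of the break and the first base of the other (prey) side. They were selected from the deposited JoinT-seq junction lists by 3 values of each row: prey on chromosome 15 in the same orientation as the bait, prey start exactly at the first base beyond the cut, and a gap of at least 1 base on the read between the bait and prey alignments. These insertion rejoins were 366732 of the 423972 listed rejoins whose prey began at that position, and of 891855 Cas9 junctions in 54 libraries; the junction lists of the whole series held 2482573 rows. The gap and the prey start are what chose the reads, so their presence is a description and not a finding; insertion length, inserted bases, bait-end loss and differences between genotypes were not part of the choice.

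The cells were v-Abl pro-B cells of the mouse, B-cell precursors that the v-Abl oncogene keeps growing in culture, and every group carried an Emu-Bcl2 transgene. Cas9 with a guide against c-Myc was nucleofected into cells arrested in G1 by STI-571, an inhibitor of the Abl kinase (3 µM for 96 h), or into cycling cells without the inhibitor. There were 18 groups of 3 libraries. Arrested wild-type cells (Emu-Bcl2 alone, here WT) were sampled as clone A in 2 sets and as clone B. Arrested Lig4-/- cells were sampled as clone A1 in 3 sets, as clone B1 and as clone C, and Ku70-/- cells as clones A1 and B1. Lig4-/- Ku70-/- cells were clones A1_1 and C1, each also with Ku70 added back (+Ku70), and Lig4-/- cells with Lig4 added back (+Lig4) were clones A1 and C. Cycling cells were WT clone A and Lig4-/- clone A1. Each mutant line is 1 clone, clones sharing a first letter were treated as 1 lineage, and how the clones were derived or the add-back was delivered is not stated in the labels. The labels do not say that the 3 libraries of a group came from separate cultures, so p-values measure the spread between these libraries, which may be technical. Genotypes rest on the labels, since expression was not analysed here.

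Classical non-homologous end joining holds broken DNA ends with the Ku70-Ku80 ring and seals them with ligase IV (Lig4) and its partners. Cas9 cuts blunt or with a short overhang, and filling in such an overhang before sealing duplicates the base beside the cut. Developing lymphocytes can also express terminal deoxynucleotidyl transferase (TdT), a polymerase that adds bases without a template and favours G and C, and whose additions at V(D)J joints are made together with classical end joining. Ends that are not joined this way can be joined by alternative routes, which often use short homologies and lose sequence.

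The break lies between bases 61987303 and 61987304 of chromosome 15 (mm10), inside Myc (RefSeq gene ID 17869, chr15:61985341-61990361 in GRCm38.p6), 1962 bases from the gene's first base; exon and intron boundaries were not used here. The sequence across the uncut site, read from the deposited reads for chr15:61987284-61987313, is shown first with the NGG motif that Cas9 needs (the PAM) in capitals. The next lines show the 4 single bases and 6 of the longer insertions with the highest mean share over groups, each after a complete bait and with the inserted bases in capitals, since these sequences carry the comparison of copied and untemplated bases.
uncut site: tccgacgagcgtcactgatagtaGGGagta
one-base A: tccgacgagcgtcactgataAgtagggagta
one-base G: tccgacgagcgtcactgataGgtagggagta
one-base C: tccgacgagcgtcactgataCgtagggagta
one-base T: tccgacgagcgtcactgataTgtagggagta
insertion GG: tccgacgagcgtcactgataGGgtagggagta
insertion GA: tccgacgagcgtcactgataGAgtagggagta
insertion AA: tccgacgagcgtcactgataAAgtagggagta
insertion CC: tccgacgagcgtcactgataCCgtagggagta
insertion GGG: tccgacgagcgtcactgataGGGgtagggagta
insertion GGA: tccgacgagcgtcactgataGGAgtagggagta
The last base of the bait is an A and the first base of the prey is a G. A single inserted A after a complete bait is therefore the same sequence as a copy of the last bait base (113472 reads in 46 libraries), and a single inserted G is the same as a copy of the first prey base (19017 reads in 23 libraries). One-base C (5983 reads in 20 libraries) and T (5438 reads in 21 libraries) copy neither neighbour. GG stood in 17318 reads, AA in 12641, GA in 9794, GGG in 7870, CC in 7158 and GGA in 2221.

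A second group of sequences joined a shortened bait to the prey with 1 base in between.
bait loss 2 with A: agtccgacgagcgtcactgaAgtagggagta
bait loss 4 with A: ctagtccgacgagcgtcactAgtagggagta
bait loss 5 with A: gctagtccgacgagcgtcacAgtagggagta
bait loss 3 with T: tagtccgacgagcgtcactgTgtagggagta
These stood in 3098, 2634, 3815 and 1341 reads, and their bait ended at base 61987301, 61987299, 61987298 and 61987300. Where the base beside the prey is an A, the read can equally be written as a deletion without insertion, in which the A is base 61987303 itself kept on the prey side. The alignment cannot tell these 2 readings apart, and the bait-loss values below carry that limit. A rejoin that restored the uncut sequence cannot be told from an uncut site, and such reads were not among the listed junctions: in every library with at least 10 insertion rejoins, 100% of the rejoins without an insertion at this position had lost bait bases.

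The submitters normalised each set of libraries to 201858, 273198, 310675, 396387 or 600000 raw reads. Junctions per library ran from 74 to 55809, so that a count of 0 allows between 0.00538% (the deepest library) and 4.05% (the shallowest) of a library's junctions, at 3 counts. Shares were taken only in the 37 libraries with at least 10 insertion rejoins; the other 17 gave counts. Reads begin with a few bases before the bait, which differ between libraries and whose role the labels do not give. In 4 libraries the insertion rejoins mostly or partly did not begin with the leading bases most frequent in that library. Only 4 of 190 insertion rejoins of Lig4-/- clone A1 (set 3) replicate 2, 2 of 19 of Lig4-/- clone C replicate 1, 0 of 5 of Lig4-/- clone B1 replicate 1 and 91 of 129 of Lig4-/- Ku70-/- clone A1_1 replicate 2 did so. In 31 of 34 libraries with such bases and at least 10 insertion rejoins, over 95% did. The main log2 differences in insertion rejoins that rest on those 4 libraries are given with and without the reads in question. Shares and base counts include these reads unless stated. No read name occurred in more than 1 library. WT clone A replicates 1 and 2 agreed over 404 joint classes (chi-square p = 0.0673) but differed over 199 joints near the break (chi-square p = 0.00387), and began with different leading bases; they were kept as separate samples.

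In arrested WT cells insertion rejoins were the main listed product of the cut. WT clone A held 25338, 37633 and 29231 of them in replicates 1 to 3, and WT clone B held 17421, 19506 and 36110. They made up 93.6%, 92.9% and 93.2% of the exact-position rejoins of clone A and 76.5%, 78.9% and 78.6% of those of clone B. Of all junctions of these libraries, on any chromosome, they were 84.0%, 83.7% and 85.0% in clone A and 62.2%, 65.8% and 64.7% in clone B. The 6 libraries thus fell into 2 sets by clone, which also differed in sequencer (Miseq for clone A and Nextseq for clone B). The second arrested set of WT clone A gave 12832, 21969 and 24106 reads, or 89.9%, 88.3% and 92.6% of its exact-position rejoins. WT and +Lig4 libraries, arrested or cycling, held 364363 of all 366732 insertion rejoins (99.4%).

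**Figure D1:**
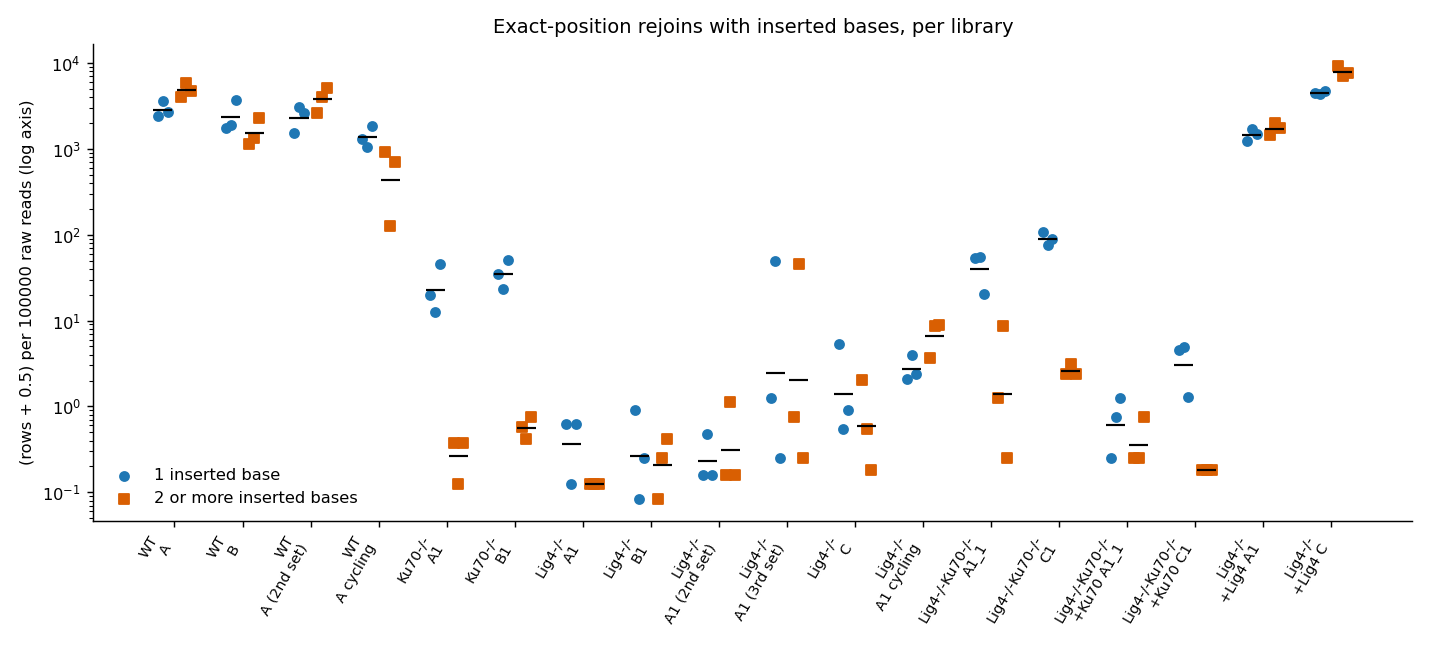
Insertion rejoins with 1 inserted base (blue circles) and with 2 or more (orange squares) in the 18 groups, as counts plus 0.5 per 100000 raw reads on a log axis; each point is 1 library and each line the mean of the log values. Both classes are high in WT and +Lig4 groups, and in both Ku70-/- groups the orange squares lie far below the blue circles (at most 4 reads a library against at least 50).

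Loss of Ku70 left a small fraction of these reads, and almost all of them carried a single base. Ku70-/- clone A1 held 79, 50 and 180 insertion rejoins and clone B1 held 212, 142 and 308. Divided by the raw reads to which the submitters normalised each set, this was 26.0 ± 17.2 (SD, n = 3) per 100000 raw reads in clone A1 against 7754 ± 1585 (n = 3) in WT clone A, and 36.8 ± 13.9 (n = 3) in clone B1 against 4058 ± 1707 (n = 3) in WT clone B. No Ku70-/- library reached the lowest WT library. The log2 difference was -7.59 on the scale of counts plus 0.5 (-8.40 in lineage A and -6.78 in lineage B; two-sided exact permutation within lineages p = 0.005, the smallest that 400 relabellings allow; adjusted p = 0.0138 over 47 tests; n = 6 against 6).

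The drop was not the same for short and long insertions. One-base rejoins per 100000 raw reads stood at 2385, 3614 and 2682 in WT clone A and at 19.7, 12.6 and 45.2 in Ku70-/- clone A1, and at 1752, 1915 and 3715 in WT clone B against 34.8, 23.3 and 50.7 in Ku70-/- clone B1. Their log2 difference was -6.52 (exact permutation p = 0.005, adjusted p = 0.0138), which is 126-fold in lineage A and 67.0-fold in lineage B. Insertions of 2 bases or more were close to absent: WT clone A held 15886, 23307 and 18599 and Ku70-/- clone A1 held 1, 0 and 1. WT clone B held 6907, 8016 and 13819 such reads and Ku70-/- clone B1 held 3, 2 and 4. Over the group totals these counts stand in a ratio of 28896 in lineage A (57792 against 2 reads; 95% exact counting interval 7999 to 238609) and 3194 in lineage B (28742 against 9; 1682 to 6985). The intervals cover counting error only, since reads of PCR products without molecular identifiers are not independent molecules.

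Insertion rejoins of Ku70-/- cells were accordingly short. One-base insertions were 98.7%, 100% and 99.4% of the insertion rejoins of clone A1 and 98.6%, 98.6% and 98.7% of those of clone B1. WT clone A had 37.3%, 38.1% and 36.4%, and WT clone B 60.4%, 58.9% and 61.7%. Ku70-/- and WT libraries were fully separate in both lineages and differed by 50.2 percentage points (62.1 in A and 38.3 in B; exact permutation p = 0.005, adjusted p = 0.0138; n = 6 against 6). Their share of exact-position rejoins was also lower, at 25.2%, 37.0% and 36.8% in Ku70-/- clone A1 and 44.5%, 42.5% and 47.8% in clone B1, a difference from WT of -46.6 points (-60.2 in A and -33.1 in B; exact permutation p = 0.005, adjusted p = 0.0138). All lineage B libraries of this comparison shared 1 sequencing run, so the lineage B values above are within-run values. In lineage A no run held both sets compared, but Ku70-/- clone A1 replicate 1 shared a run with replicate 2 of the second arrested set of WT clone A. In that run, with 1 library each and no test, the Ku70-/- library held 79 insertion rejoins and the WT library 21969. They were 25.2% and 88.3% of exact-position rejoins, and 98.7% and 43.5% of them had 1 base. With that second WT set in place of the first, an alternative added after seeing the data, the one-base share differed by 49.8 points (exact permutation p = 0.005).

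**Figure D2:**
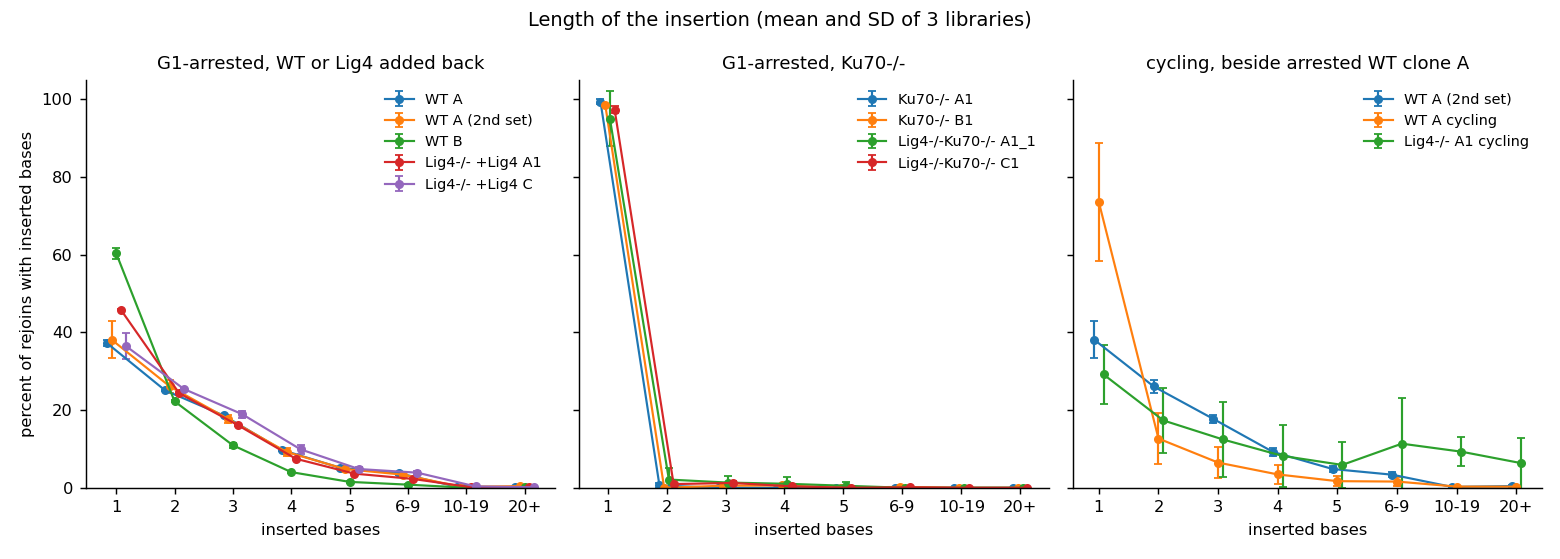
Share of insertion rejoins by number of inserted bases, in percent of a library's insertion rejoins, for arrested WT and +Lig4 groups (left), groups without Ku70 (middle) and cycling groups beside the second arrested set of WT clone A (right); points are means of 3 libraries and error bars the SD. One-base insertions make up 36.4% to 38.1% in WT clone A and 98.6% to 100% in both Ku70-/- clones.

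Lig4-/- cells yielded almost no insertion rejoins. Clone A1 (first set) held 2, 0 and 2, its second set 0, 4 and 0, and clone B1 5, 1 and 3, the first of which began in 0 of 5 reads with that library's leading bases. Per 100000 raw reads this was 0.336 ± 0.291 (n = 3) in clone A1 and 0.500 ± 0.333 (n = 3) in clone B1. All 6 libraries lay below all 6 WT libraries. The log2 difference was -13.6 (two-sided exact permutation p = 0.005, adjusted p = 0.0138; -14.1 within the runs shared in lineage A and -12.9 in the run of lineage B; -14.2 on reads with a library's own leading bases). For insertions of 2 bases or more, clone A1 held none against 57792 in WT clone A, which is at least 19264-fold lower when the group's total is set to 3 counts. Clone B1 held 3 against 28742, a ratio of 9581 (95% exact counting interval 3278 to 46460). All junctions of these libraries numbered 146, 124 and 127 in clone A1 and 155, 140 and 128 in clone B1. In WT clone A they numbered 30164, 44977 and 34371, so the folds per raw read include a fall in all junctions. As a share of all junctions, insertion rejoins averaged 0.982% against 84.2% in lineage A and 2.09% against 64.2% in lineage B (-72.7 points; exact permutation p = 0.005, adjusted p = 0.0138). The same WT libraries served the Ku70 and the Lig4 comparison. The share of exact-position rejoins that carried an insertion rested on 1 to 6 rejoins per Lig4-/- library and did not pass the test (-27.3 points; exact permutation p = 0.185).

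Insertion rejoins were abundant again in both clones with Lig4 added back. Lig4-/- +Lig4 clone A1 held 5403, 7517 and 6540 insertion rejoins, and clone C held 37780, 31015 and 33463. The Lig4-/- sets they were compared with held 3, 190 and 0 (clone A1, set 3) and 19, 2 and 2 (clone C), of which the 190 and the 19 were in libraries whose insertion rejoins mostly began with other leading bases. Every +Lig4 library stood above every Lig4-/- library of its lineage. The log2 difference was 11.3 (9.86 in A and 12.7 in C; exact permutation p = 0.005, adjusted p = 0.0138), 13.0 when only reads with a library's own leading bases were counted and 12.5 without Lig4-/- clone A1 (set 3) replicate 2. All junctions numbered 8642, 12595 and 11456 in +Lig4 clone A1, against 86, 411 and 82 in its Lig4-/- set. They numbered 47225 in +Lig4 clone C replicate 1, against 138, 385 and 150 in Lig4-/- clone C. As a share of all junctions, insertion rejoins averaged 59.8% against 16.6% in A and 76.7% against 5.21% in C (57.3 points; exact permutation p = 0.005, adjusted p = 0.0138). Those Lig4-/- means rest largely on the libraries with 190 and 19. No sequencing run held both sets of this comparison. The first Lig4-/- set of clone A1 (2, 0 and 2 insertion rejoins), however, was read in the same runs as +Lig4 clone A1, and within those runs the log2 difference was 12.9. In lineage C genotype and run cannot be told apart. They were of mixed length: one-base shares were 45.7%, 45.8% and 45.9% in clone A1 and 32.7%, 38.7% and 38.3% in clone C.

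Cells without both proteins had more one-base insertions per raw read than Lig4-/- cells, while the difference in longer ones did not pass the test. As a share of all junctions, insertion rejoins did not differ by the test (-10.0 points, exact permutation p = 0.135). The means were 1.17% against 16.6% in lineage A and 0.594% against 5.21% in lineage C. In each lineage the Lig4-/- mean rests largely on 1 library (46.2% and 13.8%) whose insertion rejoins mostly began with other leading bases. Lig4-/- Ku70-/- clone A1_1 held 109, 129 and 41 insertion rejoins and clone C1 held 302, 217 and 246, which is 46.1 ± 22.9 and 93.3 ± 15.8 per 100000 raw reads (n = 3 each). Against Lig4-/- cells the log2 difference was 4.63 (3.60 in A, where the groups overlapped, and 5.67 in C, where they did not; exact permutation p = 0.02, adjusted p = 0.047, replicate block p = 0.0625). Counting only reads with a library's own leading bases it was 6.24 (exact permutation p = 0.005). Within the runs shared in lineage A it was 4.29, and in lineage C no run held both groups, so that genotype cannot be told apart from run. One-base rejoins differed by 5.01 in log2 (exact permutation p = 0.01, adjusted p = 0.0261; 6.45 with a p of 0.005 on own leading bases) and insertions of 2 bases or more by 0.80 (exact permutation p = 0.57; 1.91 with a p of 0.04 on own leading bases). One-base counts overlapped in lineage A. There Lig4-/- clone A1 (set 3) replicate 2 stood at 49.0 per 100000 raw reads and double-null replicate 3 at 20.3. Of the double-null insertion rejoins, 98.2%, 86.8% and 100% had 1 base in clone A1_1, and 98.0%, 96.3% and 97.6% in clone C1. In replicate 2 of clone A1_1, the 38 reads with other leading bases held 16 of its 17 insertions of 2 bases or more.

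Double-null cells with Ku70 added back had fewer insertion rejoins per raw read, while the share of all junctions they made up did not differ by the test. Clone A1_1 +Ku70 held 0, 1 and 3 insertion rejoins and clone C1 +Ku70 held 12, 13 and 3, below every double-null library of the same lineage. Per 100000 raw reads the groups stood at 0.661 ± 0.757 and 3.42 ± 2.02 (n = 3 each). The log2 difference was -5.42 (-5.92 in A and -4.92 in C; exact permutation p = 0.005, adjusted p = 0.0138), and -5.34 and -4.92 within shared runs. On reads with a library's own leading bases it was -5.41 (exact permutation p = 0.005). Of all junctions, insertion rejoins were 0.620% with Ku70 added back against 1.17% in A, and 0.394% against 0.594% in C. This mean difference of -0.376 points did not pass the test (exact permutation p = 0.245), and the groups overlapped in both lineages. None of the 28 insertion rejoins of clone C1 +Ku70 had 2 bases or more, against 20 of 765 in double-null clone C1, which is at least 6.67-fold lower at 3 counts for the group. With only 28 reads, this cannot show that longer insertions fell more than one-base ones. One-base insertions differed by -5.44 in log2 (exact permutation p = 0.005, adjusted p = 0.0138). Insertions of 2 bases or more differed by -2.89 in log2 (exact permutation p = 0.02, adjusted p = 0.047, replicate block p = 0.0625; -2.30 with a p of 0.035 on own leading bases).

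The inserted base differed with the genotype as well. Among one-base insertions after a complete bait, A, the copy of the last bait base, made up 75.4%, 75.2% and 74.5% in WT clone A and 83.2%, 83.1% and 83.9% in WT clone B. G, the copy of the first prey base, made up 15.8%, 16.1% and 17.2% in clone A and 8.70%, 9.89% and 8.54% in clone B. Over the 15 arrested WT and +Lig4 libraries A ranged from 72.0% to 83.9%, G from 8.54% to 18.1%, C from 3.79% to 5.39% and T from 2.51% to 4.72%. Every one of these libraries thus held all 4 bases, in the order A, then G, then the other two.

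In cells without Ku70 the single base after a complete bait was an A in all but 4 reads. Ku70-/- clone A1 had 214 A and 1 T, clone B1 had 547 A of 547, Lig4-/- Ku70-/- clone A1_1 had 206 A and 3 T, and clone C1 had 525 A of 525. No G and no C was read in any of the 12 libraries. In every arrested WT and +Lig4 library, by comparison, between 16.1% and 28.0% of these reads held a base other than A.

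**Figure D3:**
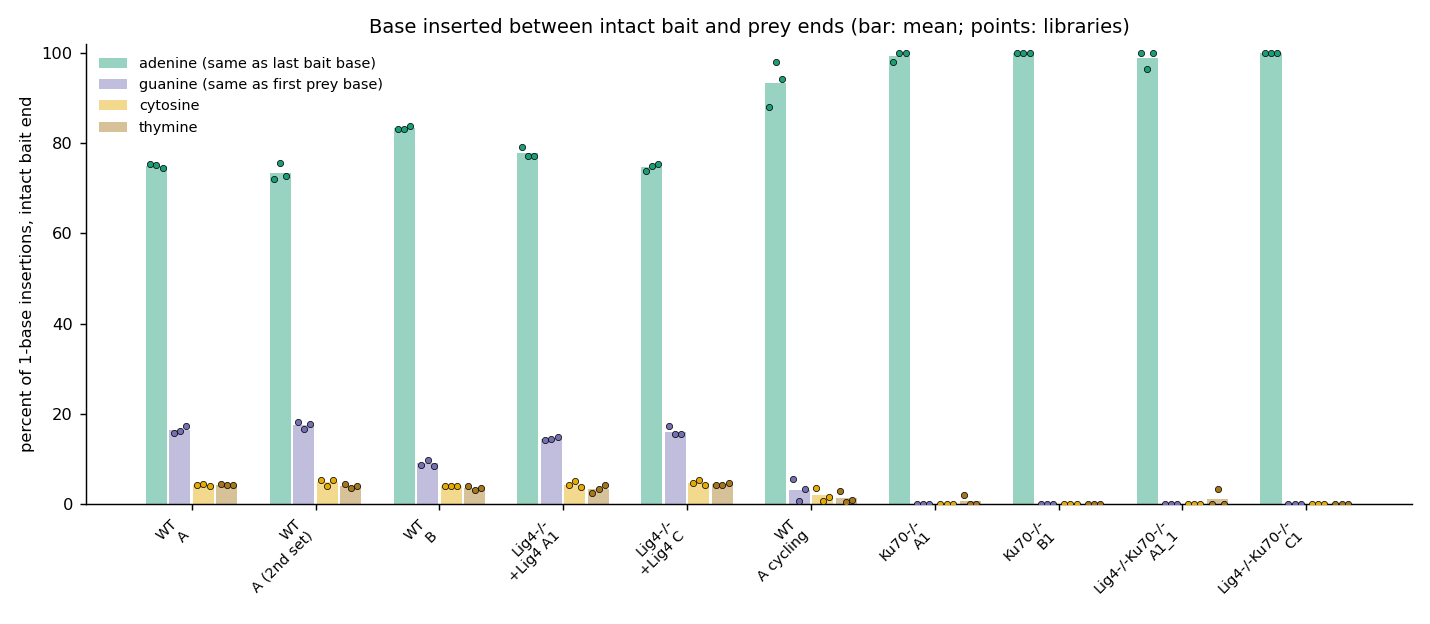
Inserted base in one-base insertions after a complete bait, in percent, by group; bars are group means and points single libraries. G, the copy of the first prey base, is seen in all WT and +Lig4 groups and is at 0 in all 4 groups without Ku70.

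Counted over all one-base insertions, with complete or shortened bait, the share that copied either neighbouring base did not differ between Ku70-/- and WT by the test. It was 89.2%, 88.8% and 89.6% in WT clone A, 69.2%, 84.0% and 89.9% in Ku70-/- clone A1, 82.1%, 85.1% and 83.3% in WT clone B and 92.8%, 94.3% and 94.1% in Ku70-/- clone B1. Ku70-/- libraries lay above WT in lineage B and mostly below it in lineage A (mean difference 1.03 points; exact permutation p = 0.805). With only complete baits counted it was 7.72 points higher in Ku70-/- (exact permutation p = 0.005). The A after a bait loss of 4 or 5 equals neither neighbouring base, while the A after a loss of 2 equals the last base of the shortened bait.

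G and C made up over 50% of all inserted bases in WT clone A and almost none in Ku70-/- cells. The values were 55.7%, 55.0% and 56.7% in WT clone A, 36.2%, 38.3% and 35.3% in WT clone B, 1.25%, 0% and 1.10% in Ku70-/- clone A1 and 0.457%, 4.00% and 2.21% in Ku70-/- clone B1. They did not overlap, and differed by -44.7 points (-55.0 in A and -34.4 in B; exact permutation p = 0.005, adjusted p = 0.0138). In insertions of 2 to 20 bases alone, which Ku70-/- cells hardly had, G and C were 62.5%, 62.0% and 63.4% in WT clone A and 48.3%, 50.3% and 47.6% in WT clone B.

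Base composition in longer insertions of WT cells differed with the place. After a complete bait, the first inserted base of WT clone A was G in 47.7% ± 1.51 and A in 31.7% ± 0.88 of reads (SD, n = 3). Inner bases were G in 44.7% ± 0.57, C in 28.4% ± 0.68 and A in 17.2% ± 0.37, and the last base, beside the prey, was A in 38.0% ± 0.52 and G in 35.1% ± 0.80. A was thus more frequent at both edges than inside, in all 3 libraries. WT clone B had the same order, with A at 37.6% ± 1.34 of first, 20.7% ± 1.14 of inner and 54.1% ± 2.19 of last bases. Over the 15 arrested WT and +Lig4 libraries, inner G ran from 41.8% to 46.5% and inner T from 8.53% to 11.1%.

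**Figure D4:**
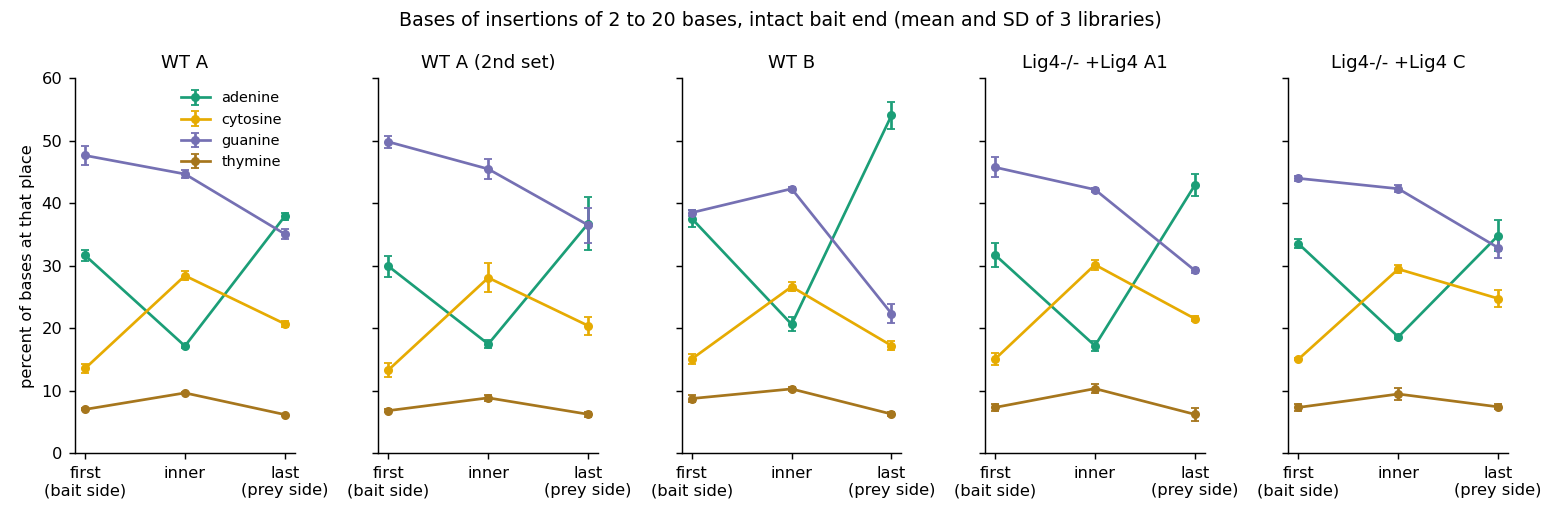
Base composition by place in insertions of 2 to 20 bases after a complete bait, in percent of bases at that place (first beside the bait, inner, last beside the prey); points are means of 3 libraries and error bars the SD, for the 5 arrested WT and +Lig4 groups. A makes up 31.7% of first, 17.2% of inner and 38.0% of last bases in WT clone A.

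Among the named longer insertions a run of 1 base was the most frequent in each group given here, and GA, which is not a run, came next. GG was 7.17% of insertion rejoins in WT clone A (mean of 3 libraries), 3.04% in WT clone B, 5.46% in Lig4-/- +Lig4 clone A1 and 6.59% in +Lig4 clone C. AA took 3.58%, 5.14%, 3.80% and 3.33% of the same groups, GA 3.90%, 3.40%, 4.06% and 3.49%, CC 3.02%, 1.80%, 2.84% and 3.48%, and GGG 3.42%, 1.00%, 2.18% and 3.01%. AA was the most frequent of these in clone B and GG in the other 3 groups. Insertions of 2 bases repeated their first base in 60.6% ± 0.33 of reads in WT clone A and 56.1% ± 0.94 in WT clone B (n = 3 each), and in 55.0% to 62.7% over the 15 arrested WT and +Lig4 libraries. Single A, for comparison, was 27.4% ± 0.79 of insertion rejoins in WT clone A, 48.5% ± 1.28 in WT clone B, 97.0% ± 3.17 in Ku70-/- clone A1 and 98.0% ± 0.53 in Ku70-/- clone B1.

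Over all insertion rejoins, 44.3% had 1 base, 24.0% had 2, 16.2% had 3, 8.10% had 4, 4.00% had 5 and 1.63% had 6. Insertions of at least 20 bases stood in 737 reads with 590 distinct sequences, the longest of 355 bases, and none of the sequences occurred in more than 1 library, so none is printed. In WT clone A they were 0.162%, 0.162% and 0.219% of insertion rejoins, and in the 12 libraries without Ku70 they were not seen. Those 12 libraries held only 41 to 308 insertion rejoins each, where a single such read would already exceed the WT clone A share. Counts this small limit what their absence can show.

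Most insertion rejoins kept the whole bait. Over all of them 73.7% (270101 reads) ended at base 61987303, 7.85% had lost 1 base and 6.01% had lost 2. Any loss was read in 24.7%, 25.1% and 25.3% of WT clone A and 29.1%, 25.9% and 26.5% of WT clone B. Ku70-/- clone A1 had 38.0%, 26.0% and 28.3%, each above every WT clone A library, while Ku70-/- clone B1 had 16.0%, 21.1% and 15.9%, each below every WT clone B library. The lineage differences of 5.73 and -9.50 points cancelled in the mean of -1.89 (exact permutation p = 0.57). Against the second arrested set of WT clone A (26.7%, 25.4% and 26.0%) Ku70-/- clone A1 overlapped, with a difference of 4.73 points in lineage A. With reads of the same bait end, inserted bases and prey alignment end counted once, the mean difference was -17.0 points (exact permutation p = 0.005).

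**Figure D5:**
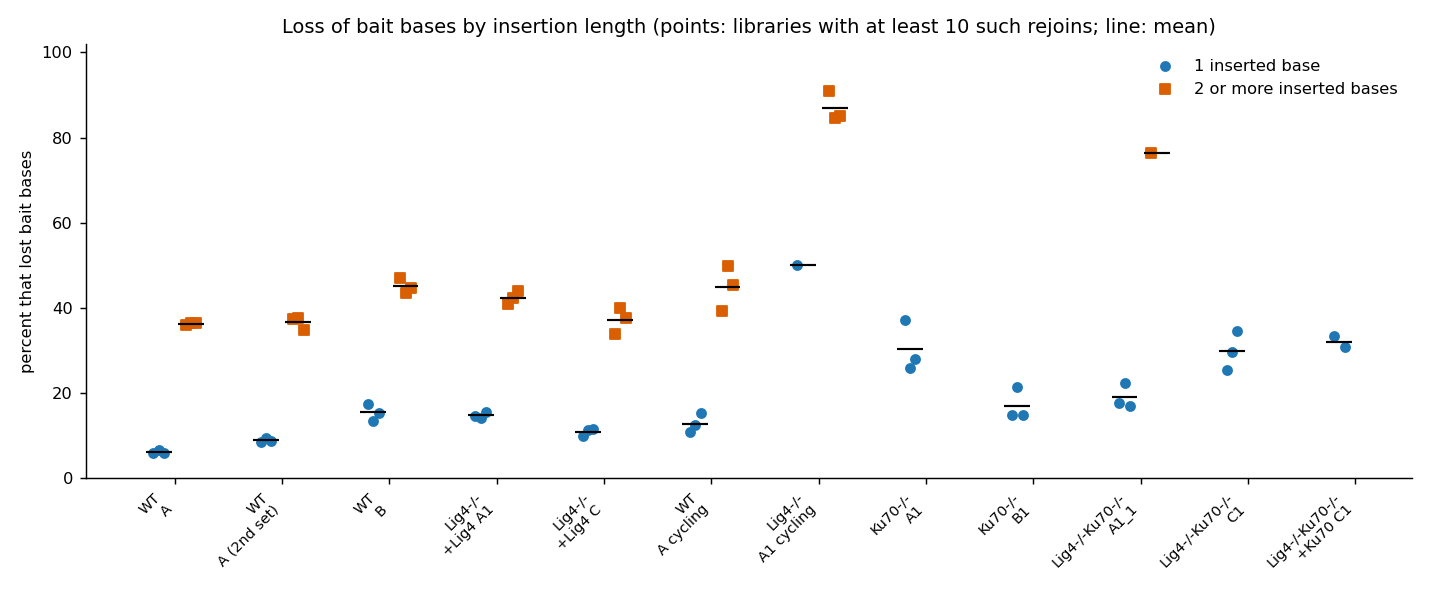
Share of insertion rejoins with lost bait bases, in percent, for one-base insertions and for longer ones, by group; each point is 1 library with at least 10 such rejoins and each line the mean. One-base insertions in arrested WT and +Lig4 libraries lie between 5.83% and 17.4%, and longer insertions in the same libraries between 33.9% and 47.0%. No one-base insertion with a bait loss of 1 was listed.

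Bait loss was read in a larger share of longer insertions than of one-base ones, with a limit set by the lists. No one-base insertion was listed at a bait loss of 1, against 28782 longer ones (8207 in WT clone A and 4449 in WT clone B). Such a one-base read would have the uncut length. This widens the gap between the classes, which was not computed without reads of loss 1. In WT clone A 5.91%, 6.59% and 5.83% of one-base insertions had lost bait bases, against 35.9%, 36.5% and 36.4% of longer ones, and in WT clone B 17.4%, 13.5% and 15.3% against 47.0%, 43.6% and 44.6%. The ranges did not meet over the 15 arrested WT and +Lig4 libraries (5.83% to 17.4% against 33.9% to 47.0%). One-base insertions of the 12 libraries without Ku70 had lost bait in 14.8% to 37.2%, so that on one-base reads alone they reached higher than any of those 15 libraries, with some overlap.

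In cells without Ku70 the shortened baits came with few sequences. Loss 2 with A made up 37 reads in Ku70-/- clone A1, 57 in Ku70-/- clone B1, 31 in Lig4-/- Ku70-/- clone A1_1 and 109 in clone C1. In the same groups loss 5 with A made up 21, 19, 6 and 33 reads, and loss 4 with A 8, 11, 5 and 39. The last inserted base was an A in 78.9% to 100% of bait-loss reads in the 11 such libraries with at least 10 of them, against 53.0% to 66.5% in the 15 arrested WT and +Lig4 libraries. The 78.9% is from Lig4-/- Ku70-/- clone A1_1 replicate 2, where 91 of 129 insertion rejoins began with that library's leading bases. Where the last A is the only inserted base, the read can equally be written as a deletion with base 61987303 kept. In longer insertions the same reading covers the last A, and further inserted bases can remain. Counted as net length, the rejoined sequence was longer than the uncut site in 92.3%, 91.6% and 92.8% of insertion rejoins in WT clone A and in 62.0%, 74.0% and 71.7% in Ku70-/- clone A1.

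Cycling WT cells had fewer and shorter insertions than arrested cells of the same clone. Cycling WT clone A held 6942, 3622 and 7935 insertion rejoins, against 12832, 21969 and 24106 in the arrested set that was normalised to the same raw reads. They were 84.9%, 75.5% and 74.6% of exact-position rejoins, against 89.9%, 88.3% and 92.6%, and 1985 ± 727 per 100000 raw reads against 6320 ± 1928 (n = 3 each). All 3 cycling libraries lay below all 3 arrested ones, with a log2 difference of -1.70. This and the differences below stood at an exact permutation p of 0.1, the smallest that 3 against 3 can give (adjusted p = 0.134), and no sequencing run held both groups: cell cycle status and run cannot be told apart.

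The difference lay mainly in the longer insertions. Per 100000 raw reads, insertions of 2 bases or more stood at 923, 127 and 697 in cycling cells and 2609, 3996 and 5116 in arrested cells (log2 difference -3.12, no overlap; exact permutation p = 0.1). One-base insertions stood at 1312, 1039 and 1857 against 1522, 3075 and 2643, which overlapped (-0.76; exact permutation p = 0.2). The one-base share was 58.7%, 89.1% and 72.7% in cycling cells against 36.8%, 43.5% and 34.1%. Among one-base insertions after a complete bait, A made up 88.0%, 98.1% and 94.2% in cycling cells against 72.0%, 75.6% and 72.8%, and G 5.53%, 0.813% and 3.29%. G and C were 44.8%, 16.8% and 33.9% of inserted bases in cycling cells against 56.9%, 50.9% and 57.3% (difference -23.2 points; exact permutation p = 0.1). Replicate 2 of the cycling cells stood farthest from the arrested cells in each of these shares; without it the difference in G and C was -15.7 points.

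Cycling Lig4-/- cells formed a few insertion rejoins. Cycling Lig4-/- clone A1 held 17, 38 and 34, against 0, 4 and 0 in the second arrested set of that clone, which was normalised to the same raw reads (9.55 ± 3.59 per 100000 raw reads in cycling cells, n = 3; log2 difference 4.78, no overlap; exact permutation p = 0.1, the smallest possible). All junctions of these libraries numbered 10022, 13060 and 10829 in cycling cells and 74, 100 and 85 in that arrested set. As a share of all junctions, insertion rejoins averaged 0.258% against 1.33%, with overlap and no difference by the test (-1.08 points). Against the first arrested set (2, 0 and 2) the log2 difference was 4.64, again without overlap (exact permutation p = 0.1). Against set 3 (3, 190 and 0) it was 1.42 (exact permutation p = 0.7), and the groups overlapped. The library with 190, at 94.1 per 100000 raw reads, stood above every cycling library and is the one in which only 4 of 190 began with its own leading bases. One sequencing run held cycling replicate 3 and replicates 1 and 2 of set 3, and within it the log2 difference was -0.20. They had lost bait bases in 88.2%, 73.7% and 85.3%, and 35.3%, 31.6% and 20.6% were of 1 base. Arrested Lig4-/- sets of this clone gave too few reads for such shares, apart from the library with 190, and the kinds of insertion were not compared. Insertions of at least 20 bases were 0%, 13.2% and 5.88%, which is 0, 5 and 2 reads. Cycling WT libraries lay apart from them in bait loss, at 22.6%, 16.5% and 23.5%, a difference that was not tested.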

How the data were processed

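The authors deposited JoinT-seq junction lists with 1 row per read, per the file headers, giving prey position and orientation, bait end, read positions of both alignments and the read sequence; the values used are coordinates, not a normalised unit. Libraries followed a published LAM-HTGTS protocol with the enzyme blocking step omitted, per the labels' protocols, and Bowtie2 and mm10 are named in the submitters' processing notes; versions and filters are not given in the sources used here. The list type can change these measurements: the HTGTS-Rep-Rejoin and LAM-HTGTS lists of lineage A place the bait end differently and were used only as an alternative.

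Insertion rejoins were rows with prey on chromosome 15, orientation 1, start 61987304 and a gap above 0; the gap is the read position of the prey start minus that of the bait end minus 1. Bait loss is the distance of the bait end from 61987303. Shares needed at least 10 insertion rejoins in a library. Counts were divided by the labelled raw reads, with 0.5 added before log2. Groups were compared over libraries by two-sided exact permutation of labels within lineages (400 relabellings for 2 lineages; 3 against 3 cannot go below 0.1), with Benjamini-Hochberg adjustment over 47 tests, in Python 3.11.15 with numpy 2.4.6, pandas 2.3.3, scipy 1.17.1 and matplotlib 3.10.9; the scripts were tested on simulated joints. The Ku70 and Lig4 comparisons share WT libraries, and the double-null and +Lig4 comparisons share Lig4-/- libraries.

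Inserted sequences named are the 4 single bases and the 10 most frequent of 2 bases or more, by the mean over groups of their share. Of these 10, TA, CA, CT and TAA are given in the closing section. The members and lists were chosen with earlier results of these data known. Same-numbered libraries deviated together in all 3 pairs only in cycling against arrested WT (correlations 0.915, 0.969 and 0.184 over 13 classes of joints), where the replicate block changed no call. Alternatives counted each distinct joint once, widened the prey start, used complete baits only, blocked replicates, left out each library and kept shared runs. Others, added after seeing the data, counted only reads with their library's leading bases and exchanged the set of the same arrested clone in lineage A. Joints were distinct by prey start, bait end, inserted bases and prey alignment end, so 1 joint read to different prey ends counted more than once.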

Additional observations from a re-analysis of the deposited data

Results flagged for a closer look

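The effect of Ku70 loss on bait-end loss differed between the lineages. Insertion rejoins with lost bait bases were 5.73 percentage points more frequent in Ku70-/- clone A1 than in WT clone A and less frequent in Ku70-/- clone B1 than in WT clone B (difference -9.50 points), with every Ku70-/- library above the first set of WT clone A in lineage A and below its WT libraries in lineage B. The effects differed by 15.2 points (exact permutation p = 0.005; adjusted p = 0.145 over 29 such tests, which fails the correction; n = 3 libraries in each of 4 groups). Ku70-/- clone A1 overlapped the second arrested set of WT clone A (difference 4.73 points). In the 1 run of lineage A that held both genotypes, Ku70-/- clone A1 replicate 1 had 38.0% and replicate 2 of that second WT set 25.4%.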

How the results depend on the processing

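Of 205 alternative values of 47 results, 185 kept their direction and their side of the threshold, as did 443 of 456 values with 1 library left out. The Ku70-/- against WT differences in number, one-base share and G and C share passed the test in every alternative run with both lineages (exact permutation p = 0.005; replicate block p = 0.0312). The G and C share of insertions of 2 to 20 bases gave no comparison, since no Ku70-/- library held 10 of them.

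With each distinct joint counted once, bait loss in Ku70-/- against WT was -17.0 points, the copied-base share 23.6, the insertion share of exact-position rejoins in Lig4-/- against WT -35.0 (each past the threshold), bait loss in +Ku70 against double-null clone C1 -11.2 and bait loss in cycling against arrested WT 0.678 (both reversed). A bait loss of at least 5 bases turned the Ku70-/- value to 4.39 and the cycling WT value to 1.35. Complete baits alone gave a copied-base difference of 7.72. With prey starts up to 5 bp beyond the break, the insertion share differed by -31.1 (Lig4-/- against WT) and -45.4 (double-null against Lig4-/-), both past the threshold, and by 9.51 (+Ku70 against double-null) and -23.4 (cycling against arrested Lig4-/-), both reversed. Within shared runs the insertion share differed by -33.1 (Ku70-/- against WT, lineage B) and -8.09 (double-null against Lig4-/-). HTGTS-Rep-Rejoin lists of lineage A gave -88.9 for Ku70-/- against WT (exact permutation p = 0.1, the smallest possible). There Ku70-/- clone A1 replicates 1 and 2 held only 2 and 1 exact-position rejoins, none with an insertion, and replicate 3 held 272, 90 of them with one. With Lig4-/- clone A1 set 1 or set 3 in place of set 2, the insertion share in cycling against arrested Lig4-/- differed by -31.2 and -38.3, both reversed (exact permutation p = 0.4 each). The cause of these shifts was not tested.

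The replicate block left the double-null difference of 4.63 at p = 0.0625 and the difference of -2.89 in insertions of 2 bases or more with Ku70 added back at p = 0.0625, and changed no other call; 4 of 9 same-numbered pairs had a correlation over 0.1 (lowest -0.683).

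With 1 library left out, with exact permutation tests, ranges that crossed 0 or the threshold were -1.19 to 3.99 (copied-base share, Ku70-/- against WT; negative without Ku70-/- clone A1 replicate 3), -38.4 to -13.4 (insertion share, Lig4-/- against WT; p = 0.035 without clone A1 replicate 1) and -54.5 to -29.5 (double-null against Lig4-/-; p = 0.005 without clone A1 set 3 replicate 3, which also brought the share of all junctions to -14.1 with p = 0.015). They were -19.8 to 5.24 for +Ku70 against double-null (reversed without clone A1_1 +Ku70 replicate 1, and at 0.238 without replicate 2), -5.78 to 19.2 for +Lig4 against Lig4-/- and -9.02 to 24.3 for cycling against arrested Lig4-/-. Bait loss in +Ku70 against double-null clone C1 ran from -2.17 to 2.51 and the share of all junctions in cycling against arrested Lig4-/- from -1.74 to 0.258. Without double-null clone A1_1 replicate 3 the share of all junctions with Ku70 added back differed by -0.593 (exact permutation p = 0.03). With all libraries it differed by -0.376 (exact permutation p = 0.245).

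Insertion shares of Lig4-/- and clone A1_1 +Ku70 libraries rest on few rejoins, which limits what they can show. Shared runs could not be used where none exist, and the LAM-HTGTS lists gave no test because Lig4-/- and Ku70-/- libraries held no exact-position rejoin there.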

Other observations

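The other named insertions after a complete bait were TA (2476 reads in 18 libraries), CA (2388 in 19), CT (755 in 18) and TAA (98 in 14). TA took 1.10% of insertion rejoins in WT clone A and 2.28% in WT clone B (means of 3 libraries), and CA 1.05% and 1.98%. No test was run on these. CT and TAA ranked among the 10 through cycling Lig4-/- clone A1, where they averaged 4.90% and 5.88% over few reads.

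Insertions of 8 to 40 bases were searched for an 8-base match to the 50 bases on either side of the break. Reads with the same bait end, inserted bases and prey alignment end were counted once, so that 1 inserted sequence can count more than once. A match was found in 6 of 9 insertions so counted of cycling Lig4-/- clone A1 (66.7%; 95% exact interval 29.9% to 92.5%), 24 of 121 of cycling WT clone A (19.8%; 13.1% to 28.1%) and 60 of 900 of arrested WT clone A (6.67%; 5.13% to 8.50%). The cycling values differed between libraries. In cycling WT clone A replicate 2 alone held 15 matches in 24 insertions (62.5%), against 7 of 69 (10.1%) and 2 of 28 (7.14%) in replicates 1 and 3, and without replicate 2 the share was 9 of 97 (9.28%; 4.33% to 16.9%). Cycling Lig4-/- replicates 1 to 3 had 0 of 1, 3 of 5 and 3 of 3. In cycling WT cells 22 of the 24 matched the strand of the bait, 13 of them in replicate 2, and 2 the other strand, both in replicate 2; in arrested WT clone A 31 and 29 did. A longer insertion has more places for an 8-base match. Lengths were not matched between the groups, and no rate of matches by chance was computed. The intervals cover counting error only and no test was run.

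Beside the limits that chose the reads, WT clone A held 34410 exact-position rejoins with a gap of 1, 6122 with a gap of 0 and 571 with a gap of -1. Reads with a gap above 0 whose prey began 1 base before the position, at it, and 1 and 2 bases beyond it numbered 15, 92202, 1041 and 2037 in WT clone A, and 309 at it, 5 and 27 beyond it in Ku70-/- clone A1.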
